A study of Mus musculus with 27 samples.

Results

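Hepatic stellate cells (HSCs) isolated 72 h after 1 injection of carbon tetrachloride (CCl4) were compared with HSCs of healthy mice over all genes. The comparison used 8 of the 27 RNA-seq libraries of the series, 4 labelled acute 72 h and 4 labelled healthy, chosen by their labels and by no measured value. All mice were male Balb/c of 10 to 12 weeks. The acute 72 h mice had received 0.5 µL CCl4 per gram of body weight, given into the peritoneum in mineral oil, and the healthy mice had received no injection, so neither CCl4 nor oil. HSCs of both groups were taken from perfused livers by sorting on ultraviolet fluorescence, which reads the vitamin A they store, and their RNA was collected without culture. Cells without this fluorescence lie outside the gate. Acute 24 h (n = 3) and acute 7 d (n = 4) HSCs, from mice of the same strain, sex, age range and dose, served to show where 72 h differs from an earlier and a later time after the same injection.

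HSCs are the pericytes of the liver sinusoid. In the healthy liver they are quiescent, store retinyl esters in lipid droplets and secrete factors such as hepatocyte growth factor and reelin. After hepatocyte injury they activate, which means that they divide, acquire a contractile cytoskeleton and deposit fibrillar collagen, and CCl4, which hepatocytes turn into a toxic radical, is a standard way to set this off in mice.

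The healthy libraries held 10792560 to 12596066 counts and the acute 72 h libraries 11150326 to 12553594, with 18807 to 26162 and 19816 to 24954 genes detected. Levels are given in CPM, counts scaled to a common library total after adjustment by each library's TMM scaling factor. Changes are log2 fold changes, acute 72 h minus healthy. Their standard error (SE) was derived from the test described below, as the size of the change over the square root of its F statistic. Healthy replicate 4 correlated with the other healthy libraries at 0.902 to 0.908, against 0.943 to 0.956 among those. Acute 72 h replicates 1 and 2 correlated at 0.951, replicates 3 and 4 at 0.948, and libraries across these pairs at 0.914 to 0.935. The pairs stand apart in collagen, mitosis and contractile genes, so values of each library are given below. The study's methods call the samples biological repeats from individual experiments, and the labels do not tie a library to an animal. All 16 stellate cell markers had counts in every group, and 1 of them (Col3a1) was called higher and 5 (Colec11, Reln, Rgs5, Dcn and Ngfr) lower by the test described below, with a median log2 fold change of -0.36. Lrat, which makes retinyl esters, Des and Pdgfrb were not called. Because these are bulk samples, fewer cells of a type and less RNA per cell cannot be told apart.

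A gene was called when its adjusted p (edgeR quasi-likelihood test with Benjamini-Hochberg adjustment over the 18758 genes tested) was below 0.05 and its change above 2-fold. Acute 72 h HSCs had 1543 genes called higher, 8.23% of those tested, and 812 called lower, 4.33%. In 1363 of the higher and 607 of the lower genes the libraries of the groups did not overlap, while over all genes tested 14.2% were higher without overlap and 9.37% lower. Both directions together made 12.6% of the genes tested. The median change of all genes was 0. The 520 genes of 17 lists of functions included 178 called higher, or 34.2%, and 34 called lower, or 6.54%. The lists were chosen with earlier results of these data known, so shares above those of all genes are not independent evidence.

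**Figure D1:**
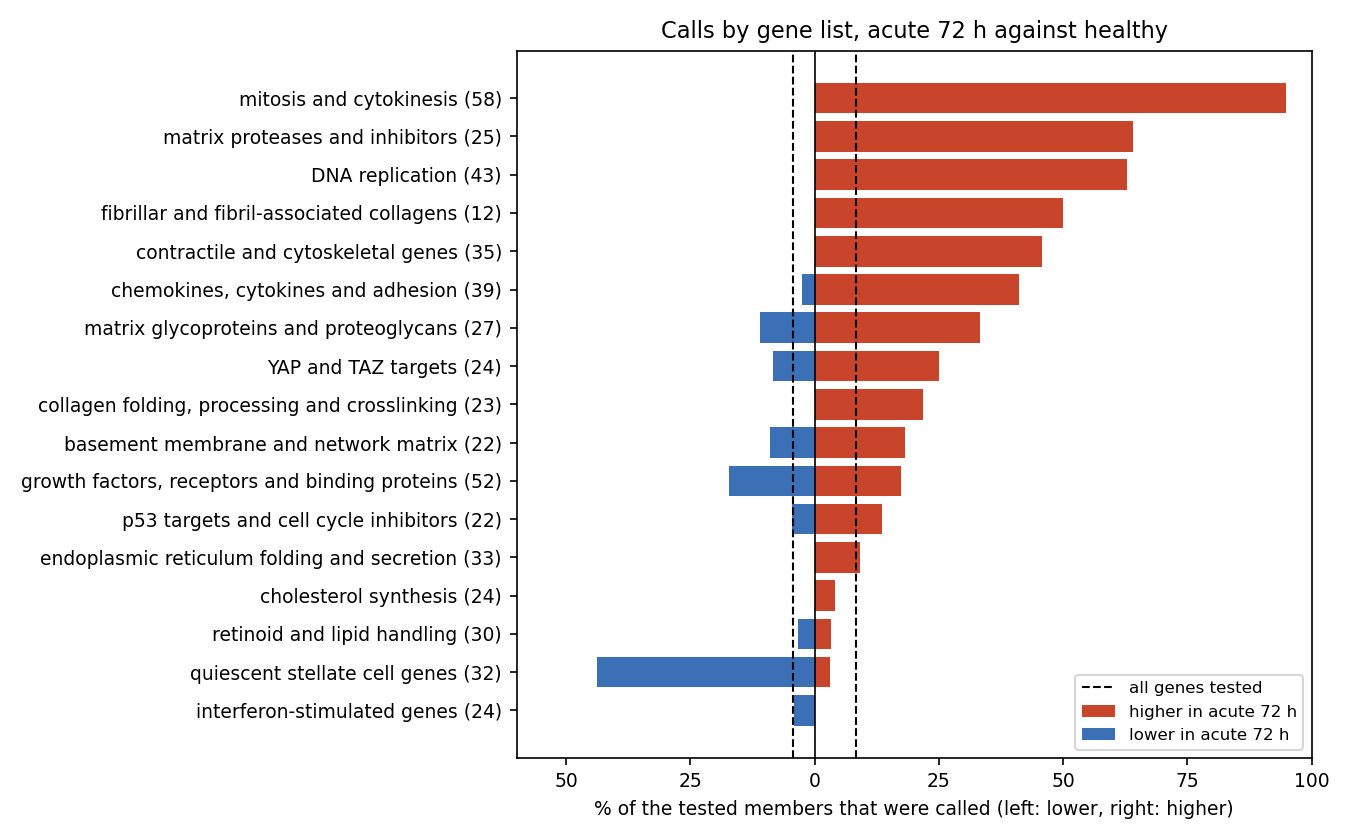
Share of the tested members of each gene list that were called higher (right) or lower (left) in acute 72 h than in healthy HSCs, with the number tested in brackets. Dashed lines mark the shares over all genes tested, 8.23% higher and 4.33% lower. Mitosis genes reach 94.8% on the right and quiescent stellate cell genes 43.8% on the left.

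Genes of cell division formed the list with the highest share of calls. Of 58 genes of mitosis and cytokinesis, 55 were higher and 0 lower, with a median log2 fold change of 3.56. The other 3, chosen here after their values were seen, were Cks2 (0.59), Pttg1 (0.54) and Bub3 (0.37). Of 43 genes of DNA replication, 27 were higher and 0 lower, with a median of 1.55. The summed level of the mitosis list was 368 to 456 CPM in the healthy libraries and 1830, 1790, 3110 and 3300 CPM in acute 72 h replicates 1 to 4. That of the replication list was 421 to 447 CPM against 1160, 1080, 1280 and 1450 CPM. Neither list overlapped between the groups, and acute 72 h replicates 3 and 4 were above replicates 1 and 2 in both.

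Many promoters of mitotic genes carry CCAAT boxes, bound by the factor NF-Y, and a cell cycle genes homology region with the core TTTGAA, bound by the DREAM and MMB complexes. Since nearly all genes of the list moved together, promoters of 5 of its members are shown, from 250 bases before to 50 bases after the start, from RefSeq on GRCm38.p6. Capitals mark TTTGAA and CCAAT on either strand, so that TTCAAA and ATTGG are the same motifs read from the other strand, and in Ube2c a CCAAT and an ATTGG overlap.
Ccnb2 promoter, chr9:70421505-70421804, minus strand: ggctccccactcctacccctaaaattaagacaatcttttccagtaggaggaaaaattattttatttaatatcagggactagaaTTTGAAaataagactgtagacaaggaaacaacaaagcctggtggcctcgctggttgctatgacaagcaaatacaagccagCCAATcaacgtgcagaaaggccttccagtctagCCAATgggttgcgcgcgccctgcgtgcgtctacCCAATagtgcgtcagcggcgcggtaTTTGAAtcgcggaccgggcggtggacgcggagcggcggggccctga
Cdk1 promoter, chr10:69352863-69353162, minus strand: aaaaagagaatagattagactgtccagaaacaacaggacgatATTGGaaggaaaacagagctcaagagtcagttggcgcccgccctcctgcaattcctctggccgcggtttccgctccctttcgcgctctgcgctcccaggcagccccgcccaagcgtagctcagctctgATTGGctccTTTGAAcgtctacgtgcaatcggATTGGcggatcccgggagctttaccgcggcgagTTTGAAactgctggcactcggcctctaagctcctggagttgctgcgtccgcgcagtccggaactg
Ube2c promoter, chr2:164769679-164769978, plus strand: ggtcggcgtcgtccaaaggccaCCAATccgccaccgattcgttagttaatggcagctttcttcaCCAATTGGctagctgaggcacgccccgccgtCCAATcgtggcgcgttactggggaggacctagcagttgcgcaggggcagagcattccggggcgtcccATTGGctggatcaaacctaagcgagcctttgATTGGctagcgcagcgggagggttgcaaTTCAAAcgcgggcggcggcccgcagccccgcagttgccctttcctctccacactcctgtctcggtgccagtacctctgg
Top2a promoter, chr11:99024140-99024439, minus strand: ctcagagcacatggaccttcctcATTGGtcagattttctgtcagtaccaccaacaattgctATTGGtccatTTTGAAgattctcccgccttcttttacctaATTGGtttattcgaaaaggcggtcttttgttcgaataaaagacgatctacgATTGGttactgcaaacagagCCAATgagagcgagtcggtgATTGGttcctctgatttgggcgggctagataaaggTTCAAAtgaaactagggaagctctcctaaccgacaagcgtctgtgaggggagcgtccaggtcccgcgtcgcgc
Ccnb1 promoter, chr13:100786437-100786736, minus strand: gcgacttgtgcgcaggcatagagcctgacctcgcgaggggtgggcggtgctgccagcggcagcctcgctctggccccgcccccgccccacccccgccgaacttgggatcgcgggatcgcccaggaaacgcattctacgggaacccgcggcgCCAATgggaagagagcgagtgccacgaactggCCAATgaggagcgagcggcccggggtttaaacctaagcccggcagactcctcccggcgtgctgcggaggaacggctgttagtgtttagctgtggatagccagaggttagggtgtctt
Ccnb2, Cdk1, Ube2c and Top2a hold both motifs, with 3, 3, 6 and 6 CCAAT boxes, and Ccnb1 holds 2 CCAAT boxes and no TTTGAA within this window. Promoters of 46 of the 58 genes were matched by symbol. TTTGAA was present in 34 of them (73.9%) and CCAAT in 36 (78.3%), and 30 (65.2%) had both in a single promoter. Among 11680 of the genes tested, the shares were 14.8%, 42.2% and 5.8%. The replication list, with promoters for 34 of its genes, held TTTGAA in 5 (14.7%) and CCAAT in 21 (61.8%). These are matches of letters, and binding was not measured.

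Cyclins and their kinase showed this rise in every acute 72 h library. Ccnb1, cyclin B1, which drives entry into mitosis (chr13:100778650-100786570), was at 1.45, 3.90, 2.19 and 1.73 CPM in healthy replicates 1 to 4 and at 23.8, 20.8, 63.9 and 73.4 CPM in acute 72 h replicates 1 to 4. All acute 72 h libraries were above all healthy ones, and replicates 3 and 4 were the high pair. Its log2 fold change was 4.29 (SE 0.70, edgeR adjusted p = 0.00011). Its partner Cdk1 (chr10:69335146-69352938) was at 5.71, 3.22, 4.21 and 6.67 CPM and at 38.7, 44.2, 42.0 and 52.8 CPM, with no such split between the pairs. Its log2 fold change was 3.16 (SE 0.32, edgeR adjusted p = 3.6e-07).

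Ccna2, cyclin A2 of S phase and early mitosis, was at 5.89 to 9.18 CPM in healthy HSCs and at 68.1, 65.5, 155 and 183 CPM at 72 h, a log2 fold change of 4.02 (SE 0.42, edgeR adjusted p = 5.2e-07). Top2a, the topoisomerase that untangles sister chromatids, was at 1.73 to 3.20 CPM and then at 26.1, 32.6, 47.5 and 59.4 CPM. Mki67, which codes for the proliferation antigen Ki-67, was at 9.70, 26.2, 23.3 and 4.59 CPM and then at 159, 129, 178 and 206 CPM. The groups did not overlap in any of these genes. Further members among the highest changes were Aurkb, the kinase of the chromosomal passenger complex (log2 fold change 4.36, SE 0.68), Ube2c, which serves the anaphase-promoting complex (4.34, SE 0.82), and Pclaf, a partner of PCNA outside the lists (4.66, SE 0.50). Cks1b, which activates cyclin-dependent kinases, changed by 3.03 and Lmnb1, lamin B1, by 3.07.

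In the replication list, the helicase subunit Mcm6 was at 3.81 to 6.07 CPM in healthy HSCs and at 49.0, 32.0, 45.4 and 47.0 CPM at 72 h, a log2 fold change of 3.19 (SE 0.30, edgeR adjusted p = 1.9e-07). E2f1, a transcription factor that turns on S phase genes, was at 0.87 to 2.19 CPM and then at 19.6 to 24.3 CPM. Ccne1, cyclin E1, and Mcm7 changed by 3.32 and 1.55. All 4 genes were higher in every acute 72 h library than in every healthy library.

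Among 22 p53 targets and cell cycle inhibitors, 3 were higher and 1 lower, with a median of 0.15. Cdkn2c, which codes for the inhibitor p18, rose by 1.67 (SE 0.25) and Gtse1, a regulator of p53 that peaks in G2, by 3.94 (SE 0.72). The death receptor gene Tnfrsf10b was called at a log2 fold change of 2.87, with at most 1.30 CPM in any of the 8 libraries, and the call was lost when any of healthy replicates 1, 3 and 4 or acute 72 h replicate 2 was left out and when only the 2 groups were fitted, with 3.96 without healthy replicate 2. Cdkn1c, the inhibitor p57, was the lower member, at 33.9, 46.2, 47.3 and 25.7 CPM in healthy and 13.4, 15.7, 17.8 and 21.3 CPM in acute 72 h HSCs. Cdkn1a, the inhibitor p21 and main p53 target, was not called, at 4.29 to 20.6 CPM against 35.7, 43.7, 2.76 and 23.7 CPM. Its acute 72 h libraries reached from below to above the healthy range (log2 fold change 1.37, SE 0.70, edgeR adjusted p = 0.17).

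**Figure D2:**
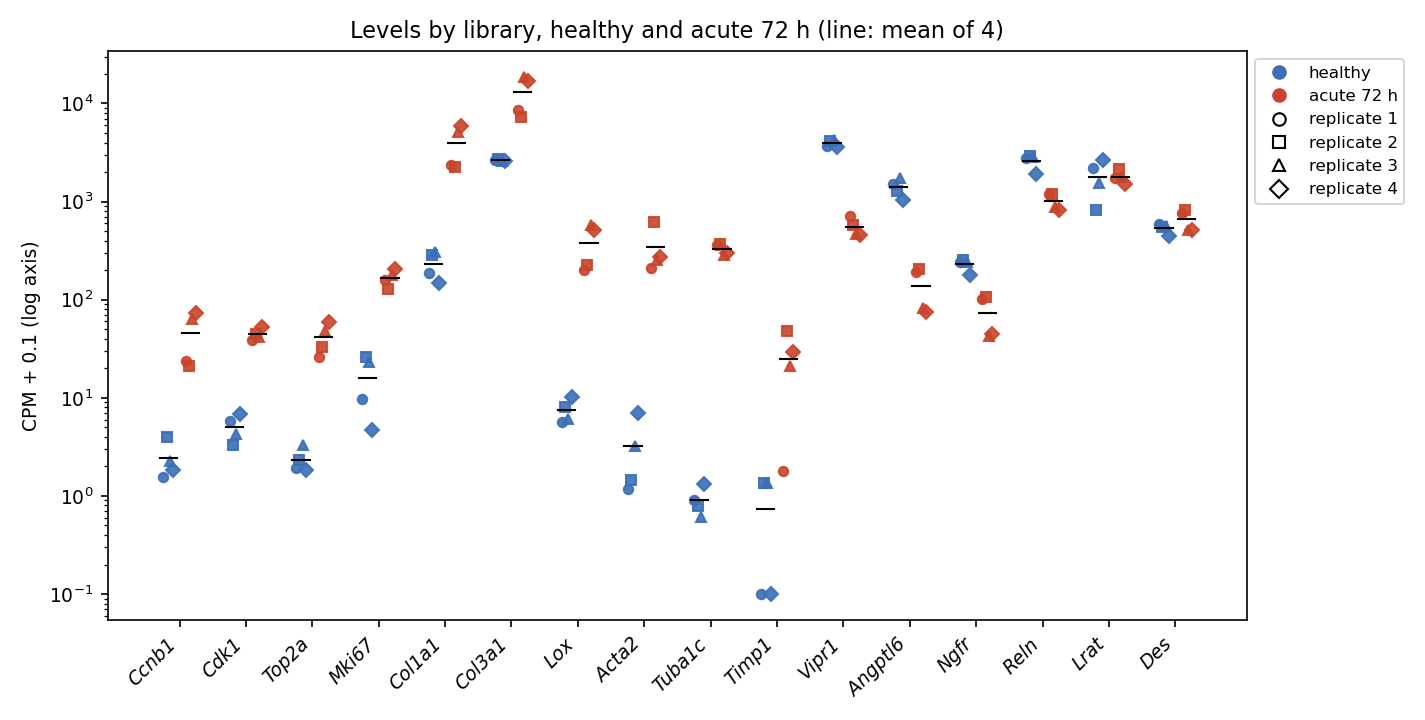
CPM plus 0.1 (log axis) of 16 genes in the 4 healthy (blue) and 4 acute 72 h (red) libraries, with a symbol for each replicate number and a line at each mean. Cell division, collagen, Lox, Acta2 and Tuba1c lie higher at 72 h in all libraries, Vipr1, Angptl6, Ngfr and Reln lie lower, and Lrat and Des overlap. Timp1 at 72 h runs from 1.68 CPM in replicate 1 to 47.9 CPM in replicate 2.

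Several fibrillar collagens rose. Of 12 fibrillar and fibril-associated collagens, 6 were higher, 0 lower and 6 not called, with a median of 1.18. Col1a1, the alpha 1 chain of type I collagen (chr11:94936224-94953042), was at 187, 282, 304 and 148 CPM in healthy HSCs and at 2346, 2264, 5094 and 5951 CPM at 72 h. All acute 72 h libraries were above all healthy ones, and replicates 3 and 4 were again the high pair. The log2 fold change was 4.09 (SE 0.38, edgeR adjusted p = 1.9e-07).

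Its partner chain Col1a2 was at 868 to 1196 CPM in healthy HSCs and at 3052, 2566, 5775 and 5674 CPM at 72 h. Type III collagen, Col3a1, was at 2579 to 2744 CPM and then at 8668, 7283, 18780 and 17040 CPM (log2 fold change 2.29, SE 0.26, edgeR adjusted p = 1.3e-06). Col5a2, of the type V collagen that starts fibrils, rose by 2.44 and did not split between the pairs, at 408, 482, 478 and 452 CPM. Col12a1, a fibril-associated collagen, was at 1.56 to 3.51 CPM and then at 53.5 to 63.6 CPM, a log2 fold change of 4.48. The remaining higher member, named after its values were seen, was Col6a3 of type VI collagen. The list summed to 5850 to 7870 CPM in healthy libraries and to 18900, 16500, 34800 and 33700 CPM in acute 72 h replicates 1 to 4.

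Of 22 genes of basement membrane and network collagens and laminins, 4 were higher and 2 lower, with a median of 0.12. Col8a1, a network collagen, was at 38.0 to 81.8 CPM in healthy HSCs and at 411, 311, 605 and 631 CPM at 72 h. Col4a5, Lama5 and Col15a1 changed by 4.35, 2.10 and 1.81. The lower members were the laminin chains Lama1 (log2 fold change -1.26) and Lamc3 (-2.48), whose groups overlapped. Lama1 was not called when only the 2 groups were fitted, nor Lamc3 without healthy replicate 3.

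Enzymes that act on collagen rose in part. Of 23 genes of collagen folding, processing and crosslinking, 5 were higher and 0 lower, with a median of 0.48. Lox, lysyl oxidase, which crosslinks collagen and elastin, was at 5.62, 7.90, 5.98 and 10.1 CPM in healthy HSCs and at 201, 227, 574 and 517 CPM at 72 h (log2 fold change 5.68, SE 0.51, edgeR adjusted p = 1.3e-07). Its relative Loxl2 was at 20.1 to 32.7 CPM and then at 115, 227, 198 and 188 CPM. P4ha3, a prolyl hydroxylase subunit, had no count in any healthy library and 3.63, 3.55, 10.3 and 11.5 CPM at 72 h, which is at least 26.9-fold higher against a floor of 3 counts per library. The chaperone Fkbp10 rose by 1.40, and the lysyl hydroxylase Plod2, named after its values were seen, by 1.11.

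Of 27 matrix glycoproteins and proteoglycans, 9 were higher and 3 lower, with a median of 0.89. With 1 library left out, the count higher ran from 6 to 12. Vcan, versican, was at 0.95 to 3.80 CPM in healthy HSCs and at 22.1, 24.8, 21.8 and 18.5 CPM at 72 h. Thbs1, thrombospondin 1, which can activate latent TGF-beta, was at 66.5 to 133 CPM and then at 494, 899, 818 and 744 CPM. Fbln2 and Tnc, which code for fibulin 2 and tenascin C, changed by 3.52 and 2.56. Among the lower members Ecm1 was at 9714, 6587, 6785 and 13750 CPM in healthy HSCs and at 2767, 2795, 1912 and 2088 CPM at 72 h, without overlap. Dcn, decorin, was at 20920, 20130, 7652 and 21760 CPM and then at 8814, 4942, 8408 and 7944 CPM. The groups overlapped in Dcn through healthy replicate 3, and Ecm2 was the last lower member (log2 fold change -1.15).

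Of 25 matrix proteases and inhibitors, 16 were higher and 0 lower, with a median of 2.07. The plasminogen activators Plat and Plau rose by 2.85 (SE 0.29) and 3.81 (SE 0.43). Plau was at 2.02 to 2.72 CPM in healthy HSCs and at 28.4 to 36.7 CPM at 72 h. Mmp19 was at 0.69 to 1.94 CPM and then at 11.6 to 19.0 CPM, and Adamts12 changed by 2.13. Timp1, the metalloproteinase inhibitor often used as a marker of fibrogenic HSCs, was at 0, 1.27, 1.26 and 0 CPM in healthy HSCs and at 1.68, 47.9, 21.2 and 29.3 CPM at 72 h. It was called (log2 fold change 5.29, SE 1.02, edgeR adjusted p = 0.00065), yet acute 72 h replicate 1 lay close to the healthy range, and the change was 5.91 without healthy replicate 3. Mmp3, stromelysin, changed by 2.83 (SE 0.59).

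**Figure D3:**
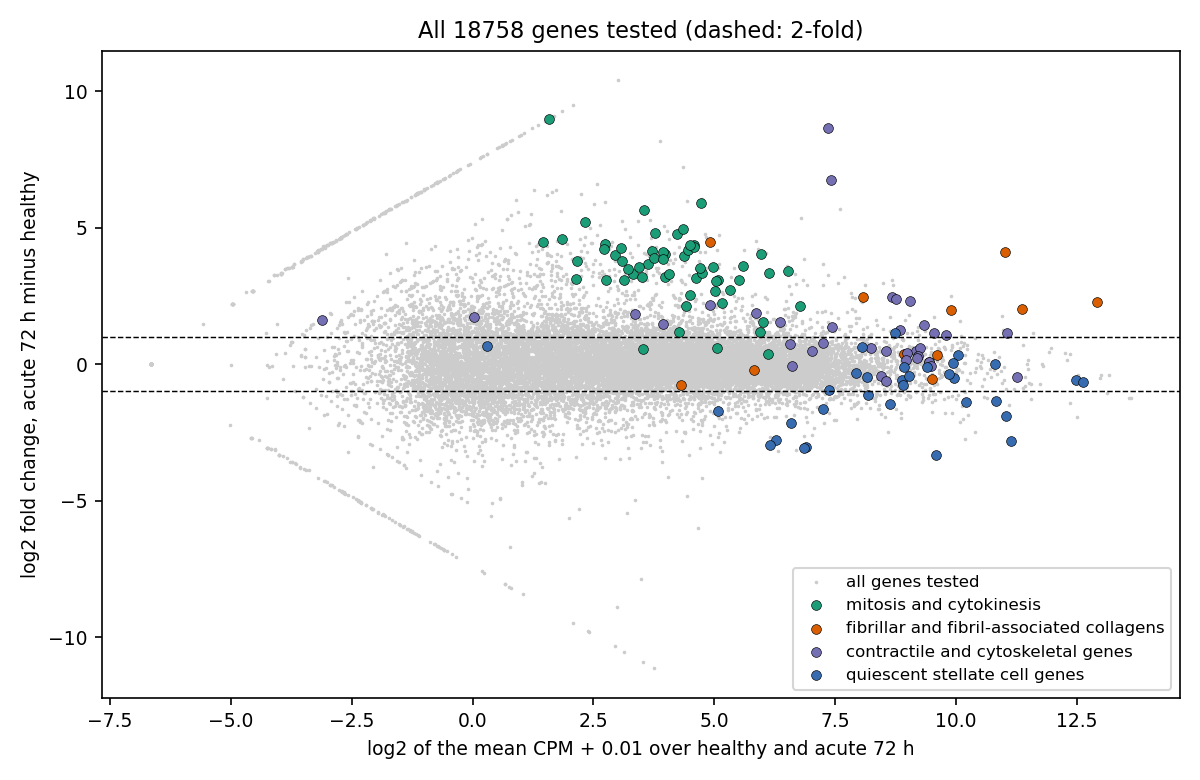
Log2 fold change, acute 72 h minus healthy, against log2 of the mean CPM plus 0.01 of both groups, for the 18758 genes tested (grey) and the members of 4 lists (coloured). Mitosis genes lie above the 2-fold line (dashed) apart from 3 members, collagens include abundant genes, and quiescent stellate cell genes extend to -3.33. The diagonal rows of grey points are genes without a count in all libraries of a group.

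Contractile and cytoskeletal genes were higher in 16 of 35 cases and lower in 0, with a median of 1.06. With 1 library left out, the count higher was 12 to 14. Acta2, which codes for alpha-smooth muscle actin, the classical marker of activated HSCs (chr19:34241090-34255590), was at 1.09, 1.37, 3.12 and 6.93 CPM in healthy HSCs and at 212, 621, 256 and 275 CPM at 72 h. The groups were far apart, with a log2 fold change of 6.76 (SE 0.89, edgeR adjusted p = 9.8e-06) and 7.50 without healthy replicate 4. Tuba1c, an alpha-tubulin, was at 0.51 to 1.21 CPM and then at 364, 366, 286 and 296 CPM (log2 fold change 8.65, SE 1.26, edgeR adjusted p = 3.6e-05). Alpha-tubulin genes are near-identical, so the split of reads among Tuba1c, Tuba1a and Tuba1b is uncertain.

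Tubb6, a beta-tubulin, was at 104 to 143 CPM in healthy HSCs and at 755, 870, 568 and 597 CPM at 72 h. Vim, the intermediate filament vimentin, was at 265 to 391 CPM and then at 870 to 995 CPM, and Actn1, alpha-actinin, changed by 1.88. Here replicates 1 and 2 were the high pair for Tubb6 and for the summed list, which was 12000 to 13800 CPM in healthy libraries and 21800, 23600, 16600 and 16000 CPM in acute 72 h replicates 1 to 4. Des, desmin, was not called, at 584, 554, 563 and 446 CPM against 772, 819, 518 and 519 CPM. A strict CArG box, the site of serum response factor with no base off its consensus, was found in 5 of 30 matched promoters of this list (16.7%) and in 1.5% of the genes tested. The Acta2 promoter held 0 such boxes in the same window. Near matches, which this factor can also bind, were not counted.

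Genes of the quiescent stellate cell fell in part. Of 32 such genes, 14 were lower and 1 higher, with a median of -0.70, and the summed level fell from 38400 to 41100 CPM in healthy libraries to 21900 to 23400 CPM at 72 h. Vipr1, the receptor for vasoactive intestinal peptide (chr9:121642716-121672954), was at 3729, 4187, 4222 and 3584 CPM and then at 712, 573, 471 and 452 CPM. Its change was -2.83 (SE 0.28, edgeR adjusted p = 2.5e-07). Angptl6, a secreted angiopoietin-like protein, was at 1496, 1271, 1756 and 1048 CPM and then at 193, 207, 82.3 and 74.3 CPM, where replicates 3 and 4 were the low pair.

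Pcsk6, a proprotein convertase, changed by -3.05 and Egfem1 by -2.78. Reln, reelin, was at 2802, 2898, 2864 and 1909 CPM in healthy HSCs and at 1194, 1209, 871 and 820 CPM at 72 h (log2 fold change -1.36, SE 0.21). Gfap, a glial filament that rodent HSCs share, was at 37.4 to 64.2 CPM and then at 11.3 to 22.2 CPM. The neurotrophin receptor gene Ngfr was at 178 to 257 CPM and then at 102, 106, 42.8 and 44.8 CPM, and the adhesion molecule gene Ntm changed by -2.16. The groups did not overlap in these genes. Adamtsl2, a matricellular protein, was the member that rose, by 1.15, and its change was 0.98 without healthy replicate 3, below the 2-fold minimum.

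Lrat, the enzyme of retinoid storage, was not called. Of 30 genes of retinoid and lipid handling, 1 was higher and 1 lower. The count higher was 3 without healthy replicate 4 and the count lower 2 without acute 72 h replicate 1, and the median of -0.06 became 0.04 both with scaling by library size alone and without healthy replicate 4. Lrat was at 2175, 822, 1547 and 2630 CPM in healthy HSCs and at 1747, 2159, 1785 and 1497 CPM at 72 h (log2 fold change 0.00, SE 0.31, edgeR adjusted p = 1). The ultraviolet gate takes cells by the retinyl esters that Lrat makes. The lower member was Pnpla3, a lipase that acts on retinyl esters, at 2.05 to 4.17 CPM and then at 0.24 to 1.51 CPM. The higher one was Aldh1a2, which makes retinoic acid, with no count in healthy libraries and 0.89 to 1.55 CPM at 72 h, at least 4.38-fold higher. The growth factor and receptor genes Hgf and Pdgfrb, both HSC markers, were not called, with changes of -0.51 and -0.33, and the early response gene Klf6 changed by -0.20 (SE 0.29, edgeR adjusted p = 0.67).

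Growth factor genes moved in both directions. Of 52 growth factors, receptors and binding proteins, 9 were higher and 9 lower, with a median of -0.13. The median was 0.01 without healthy replicate 4. The latent TGF-beta binding proteins changed in opposite directions, both without overlap between the groups. Ltbp2 was at 2.90, 7.02, 9.94 and 4.68 CPM in healthy HSCs and at 73.4, 47.9, 159 and 175 CPM at 72 h (log2 fold change 4.21). Ltbp4 was at 1446, 1968, 2150 and 1507 CPM and then at 368 to 445 CPM (log2 fold change -2.12).

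Among the other higher members Vegfd, a lymphangiogenic factor, was at 1.72, 1.85, 4.38 and 0 CPM in healthy HSCs and at 50.6, 29.7, 74.6 and 62.0 CPM at 72 h, a log2 fold change of 4.76 that was 5.51 without healthy replicate 3. The follistatin-like gene Fstl1 and Angpt2, an angiopoietin, changed by 1.56 and 1.99. The bone morphogenetic protein genes Bmp4 and Bmp2 fell by 1.15 and 1.19 on the log2 scale, and the insulin-like growth factor binding protein gene Igfbp4 by 1.38. Bmp2 is also on the list of sinusoidal endothelial markers, which was lower at 72 h as given below.

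Of 24 YAP and TAZ targets, which respond to mechanical tension, 6 were higher and 2 lower, with a median of -0.03 that became 0.09 with scaling by library size. Ccdc80 was at 613 to 1099 CPM in healthy HSCs and at 2835, 2259, 3507 and 3626 CPM at 72 h. The receptor kinase gene Axl rose by 1.08, and by 0.99 without healthy replicate 1. Fjx1 changed by 2.68 and Dock5 by 1.98, or 2.69 without healthy replicate 1, with at most 7.10 and 2.39 CPM in the 8 libraries, and Dock5 was not called when only the 2 groups were fitted. Nt5e, an ectonucleotidase that marks mesenchymal cells, and Rbms3 fell, with changes of -1.53 and -1.21. Ccn2, connective tissue growth factor, was at 108, 595, 293 and 396 CPM and then at 582, 1224, 1373 and 1383 CPM, and was not called (log2 fold change 1.71, SE 0.80, edgeR adjusted p = 0.13), while the 2-group fit called it. Ankrd1 was called (log2 fold change 2.04, edgeR adjusted p = 0.039), at 0.59 to 3.64 CPM against 3.28, 14.2, 4.31 and 5.81 CPM. Its groups overlapped, and the call was lost without any of healthy replicates 1, 2 and 3 or acute 72 h replicates 2 and 4, and when only the 2 groups were fitted. Its change was 1.42 without acute 72 h replicate 2 and 2.78 without healthy replicate 4.

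Of 39 chemokines, cytokines and adhesion molecules, 16 were higher and 1 lower, with a median of 0.88. Ccl7, which attracts monocytes, was at 14.3 to 33.4 CPM in healthy HSCs and at 201, 537, 186 and 211 CPM at 72 h. Ptgs2, cyclooxygenase 2, was at 1.36 to 5.63 CPM and then at 23.0, 37.8, 34.3 and 53.3 CPM. Tnfaip6, which binds hyaluronan, changed by 2.40, and the cytokine gene Il11 by 3.70, or 4.55 without healthy replicate 1. Il34, a ligand of the CSF1 receptor, was the lower member, at 69.0 to 173 CPM and then at 34.0 to 63.1 CPM. Outside the lists, the adhesion molecule gene Sele, E-selectin, which is best known from activated endothelium, was at 6.44, 6.24, 4.04 and 4.42 CPM and then at 204, 300, 190 and 172 CPM (log2 fold change 5.35, SE 0.46, edgeR adjusted p = 7.4e-08). Ch25h, cholesterol 25-hydroxylase, and Ccn5, a relative of Ccn2, changed by 4.28 and 4.71.

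Lists near the background were those of the interferon response, the endoplasmic reticulum and cholesterol synthesis. Of 24 interferon-stimulated genes 0 were higher and 1, Cmpk2, was lower, with a median of -0.23. Of 33 genes of endoplasmic reticulum folding and secretion 3 were higher and 0 lower, with a median of 0.14. They were Kdelr3 (2.02), Pdia5 (1.61) and Ssr3 (2.97), and Ssr3 changed by 3.99 without healthy replicate 3. Of 24 genes of cholesterol synthesis 1 was higher and 0 lower, with a median of 0.27, and 3 were higher without healthy replicate 4.

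The 12 lowest changes of the rule for named genes included hepatocyte genes and genes without a count at 72 h. Ugt2b38, a glucuronosyltransferase, was at 12.1, 13.6, 1.43 and 80.5 CPM in healthy HSCs and had no count at 72 h, at least 107-fold lower. Elovl3, a fatty acid elongase, was at 2.54, 5.85, 9.69 and 43.3 CPM and had no count at 72 h, at least 61.3-fold lower. The urinary protein gene Mup9 (log2 fold change -6.01) and the cytochrome gene Cyp4a12a (-4.99) were likewise highest in healthy replicate 4, and without it the changes were -3.78 and -3.59, and the bounds for Ugt2b38 and Elovl3 were at least 36-fold and 24.1-fold lower. Mup9 had counts in acute 72 h replicate 2 and in no other library of that group, and it was at least 203-fold lower without that library. The hepatocyte list summed to 1700, 2650, 3020 and 11200 CPM in healthy replicates 1 to 4 and to 3010, 3110, 6460 and 3010 CPM at 72 h, and 1 of its 28 genes was lower, Mup3 (-2.65). Mup3 was not called without healthy replicate 4 (-1.25) or without acute 72 h replicate 2, nor when only the 2 groups were fitted, and changed by -3.37 without acute 72 h replicate 3. The part of hepatocyte RNA in these genes was not tested.

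Nr1i3, the nuclear receptor CAR, was at 9.88, 10.3, 11.4 and 10.1 CPM in healthy HSCs and had no count at 72 h, at least 41.7-fold lower, while acute 24 h libraries held 14.51, 0 and 17.03 CPM. Smim11 was at 24.8, 20.6, 8.17 and 16.6 CPM and had no count at 72 h, at least 69.9-fold lower, and was not called without the filter on low counts. Both lie over another gene in the annotation, Tomm40l and an antisense gene, so that counting without stated strand leaves them uncertain. Galr2, a galanin receptor, was at 14.72 to 21.03 CPM and then at 0 to 0.77 CPM. Cdh4, R-cadherin, was at 46.4, 59.3, 69.4 and 29.6 CPM and then at 3.63, 2.60, 3.01 and 2.17 CPM (log2 fold change -4.16, SE 0.47, edgeR adjusted p = 1.5e-06). The unnamed loci 1700063D05Rik, Gm44220, 9530026P05Rik and Gm9353 fell by 5.32, 4.85, 4.15 and 3.61 on the log2 scale.

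Markers of other cell types were read beside these changes. Of 22 sinusoidal endothelial markers, 15 were lower and 0 higher, and the list summed to 4410 to 6910 CPM in healthy libraries and 3260 to 3770 CPM at 72 h. Stab2, Kdr and Clec4g, all defining, had means of 1.86, 7.18 and 16.4 CPM at 72 h and 10.4, 54.5 and 63.8 CPM before. Of 14 markers of monocyte-derived macrophages, 10 were higher and 0 lower, with sums of 587 to 713 CPM against 1070 to 1140 CPM, of which Fn1, also made by HSCs, took a mean of 413 and 632 CPM. The list also holds Vcan, given above among the matrix genes, and Spp1, which is likewise made by other cells. Gpnmb and Trem2 reached means of 24.6 and 6.56 CPM.

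Of 18 pan-macrophage markers 3 were higher, with sums of 171 to 614 CPM against 454 to 812 CPM that overlapped. Of 8 neutrophil markers tested 5 were higher, yet the list summed to 0.43 to 3.17 CPM and then to 10.8 to 14.1 CPM, and Ly6g and Retnlg had no count in either group. Markers of mesothelial cells and portal fibroblasts were higher in 5 and lower in 1 of 15 cases and summed to 200 to 275 CPM and then to 384, 308, 643 and 743 CPM, with Msln at 0 at 72 h. Among smooth muscle and pericyte markers 3 were higher, Acta2, Tagln and Myh11, and 3 lower, Kcnj8, Rgs5 and Rgs4. T and NK cell markers had 1 of 13 higher and 1 lower, and B cell and dendritic cell lists had 0 of 9 and 0 of 11 called. Of 9 Kupffer cell markers 1 was higher and 0 lower, with a median of -0.41 and sums of 706 to 1390 CPM against 628 to 820 CPM. The higher one was Hmox1, by 1.05, a call lost when healthy replicate 1 or 2 or acute 72 h replicate 2 was removed. Of 9 cholangiocyte markers 0 were higher and 1 lower, while the list summed to 57.9 to 107 CPM in healthy libraries and to 133 to 183 CPM at 72 h, of which Spp1, also made by other cells, took means of 66.2 and 137 CPM and was not called. The lower one was Krt19, with at most 1.94 CPM in healthy libraries and no count at 72 h, at least 3.35-fold lower, or 1.89-fold without healthy replicate 3. The part of these cells in the called genes was not tested.

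**Figure D4:**
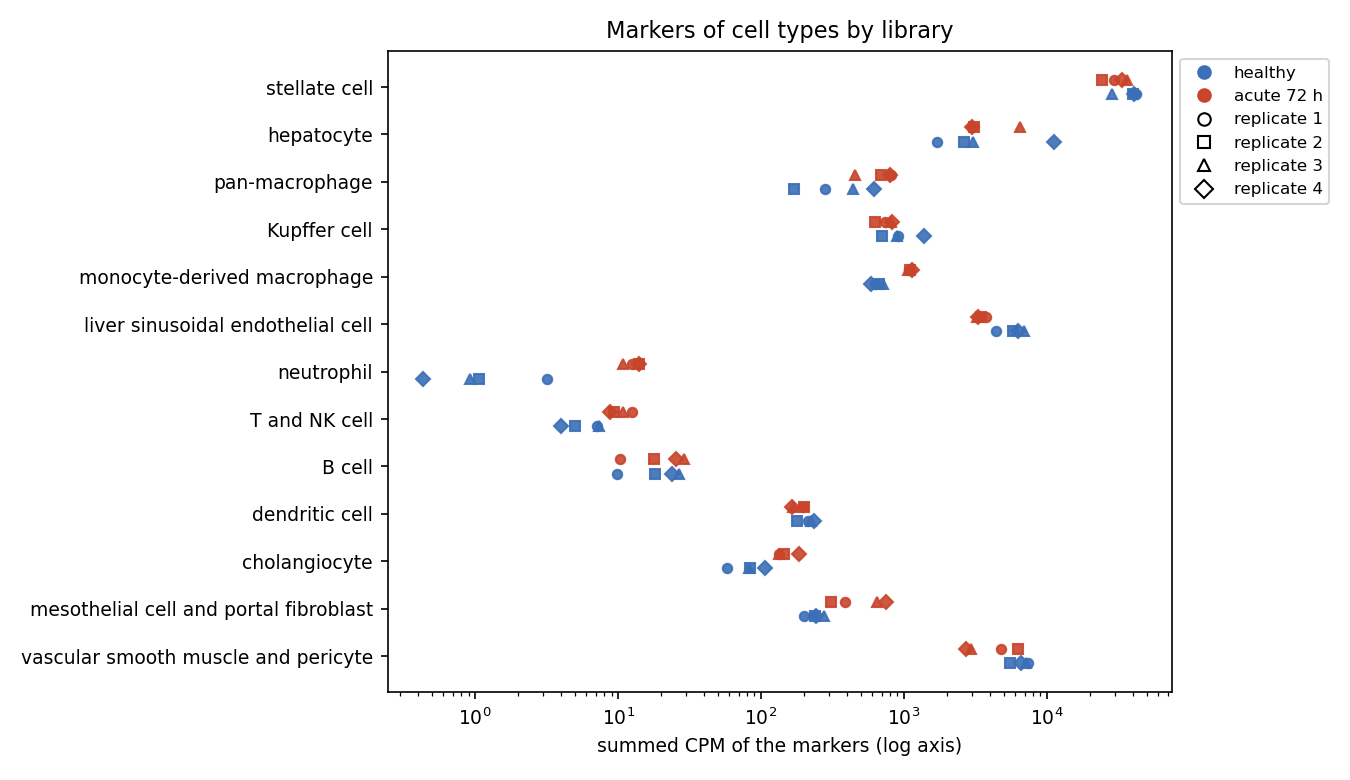
Summed CPM (log axis) of marker lists of 13 cell types in each healthy (blue) and acute 72 h (red) library, with a symbol for each replicate number. Stellate cell markers sum to 24300 to 42200 CPM in all 8 libraries, sinusoidal endothelial markers are lower at 72 h, and hepatocyte markers are highest in healthy replicate 4.

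The study described a fibrogenic and an initiatory program of activated HSCs, so their counts are not independent evidence of a direction. The fibrogenic program was chosen on chronic CCl4 libraries against healthy and recovered ones, and the initiatory program on acute 24 h against healthy libraries together with HSCs in culture, which are not analysed here. Of the 172 fibrogenic genes tested, 146 were higher and 0 lower at 72 h, with a median of 2.41. Of the 72 initiatory genes, 48 were higher and 0 lower, with a median of 2.24. Against acute 24 h, 39 fibrogenic genes were lower at 72 h and 25 higher, while over all genes tested 3.76% were lower and 11.2% higher. Of the initiatory genes 39 were lower and 1 higher, and since they were chosen for being high at 24 h, lower values at 72 h were favoured by that choice. By the study's account, 39 initiatory genes also belong to the fibrogenic program. For these shared genes the same choice favoured lower fibrogenic values at 72 h. How many of the lower fibrogenic genes are shared was not counted.

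Tests against the other times after the same injection placed the 72 h state. These comparisons share the acute 72 h libraries with each other and with the comparison above. Acute 72 h HSCs had 2110 genes higher than acute 24 h HSCs, 11.2% of those tested, and 705 lower, 3.76%. Against acute 7 d they had 512 higher, 2.73%, and 952 lower, 5.08%. Both directions made 15% against 24 h and 7.8% against 7 d. Genes higher at 72 h than in all 3 other groups numbered 157, or 0.837%, and genes lower numbered 23, or 0.123%. The mitosis list held 31 and the replication list 16 of the former, whose number was 94 without acute 72 h replicate 3 and 92 without replicate 4.

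Mitosis genes were higher at 72 h than at 24 h in 56 of 58 cases and than at 7 d in 33 of 58, with 0 lower in both. Mki67 was at 7.30, 1.82 and 3.25 CPM at 24 h and at 67.5, 59.6, 37.7 and 13.9 CPM at 7 d. The groups of 24 h and 72 h did not overlap, nor did those of 72 h and 7 d. The log2 fold changes at 72 h were 5.34 against 24 h (SE 0.78, edgeR adjusted p = 2.8e-05) and 1.91 against 7 d (SE 0.58, edgeR adjusted p = 0.032). For Pclaf they were 6.37, or 7.08 without acute 24 h replicate 1, and 1.84.

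Collagens and contractile genes had another order in time. Of 12 fibrillar collagens, 9 were higher at 72 h than at 24 h and 4 lower than at 7 d, and the list summed to 4290 to 5950 CPM at 24 h and 34000 to 56500 CPM at 7 d. Col1a1 was at 616, 528 and 551 CPM at 24 h and at 10030, 10950, 11990 and 4454 CPM at 7 d, with changes at 72 h of 2.79 and -1.26. Of 35 contractile genes 2 were higher and 2 lower than at 24 h, and 16 were higher than at 7 d with 0 lower. Their sum was 25200 to 26700 CPM at 24 h and 9520 to 10400 CPM at 7 d, below all acute 72 h libraries. Tagln, transgelin, an actin-binding protein of smooth muscle, was at 1408, 1834 and 1834 CPM at 24 h, 685, 1394, 467 and 387 CPM at 72 h and 129, 101, 168 and 167 CPM at 7 d. Its change was 2.38 against 7 d (SE 0.48, edgeR adjusted p = 0.0021) and -1.21 against 24 h, which was not called.

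**Figure D5:**
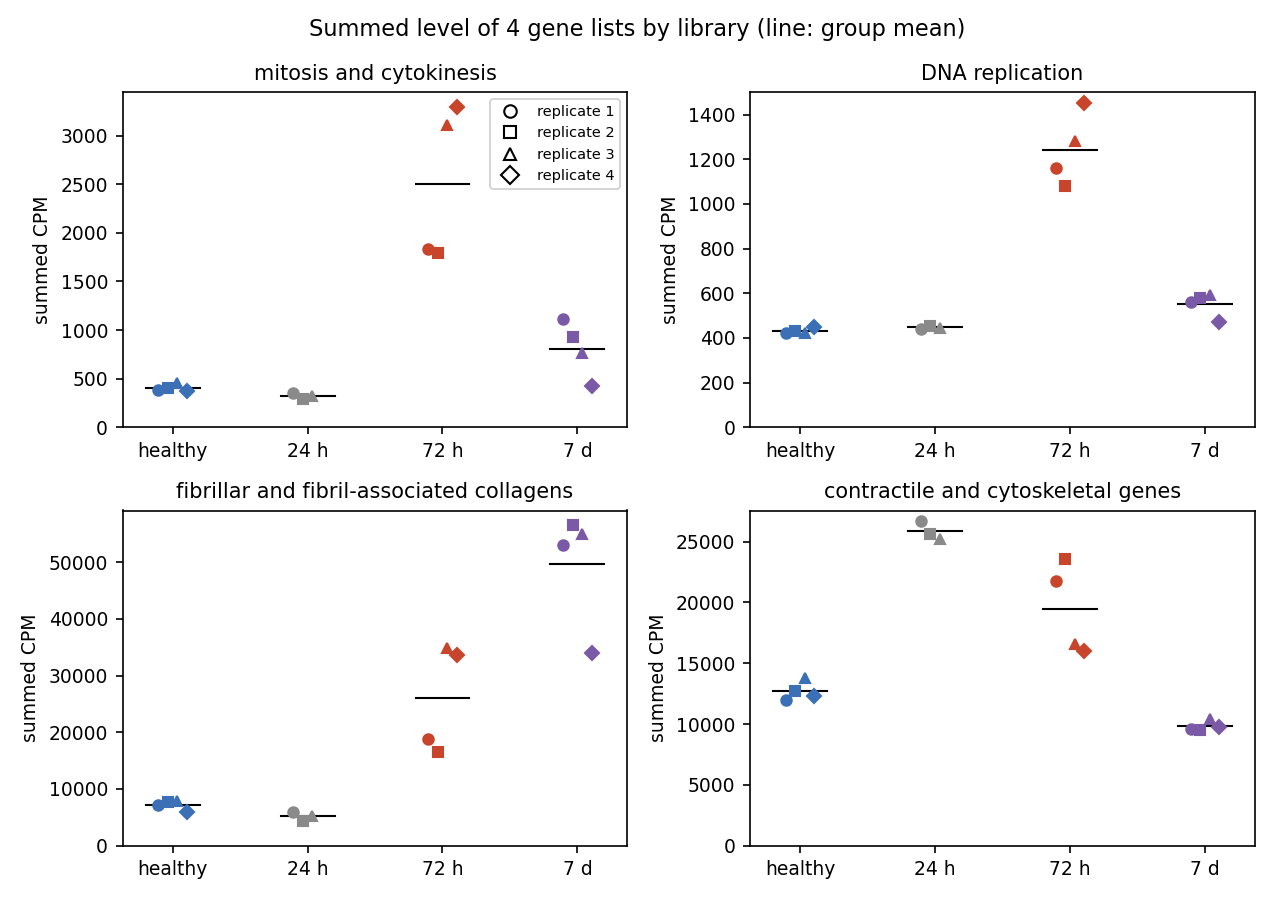
Summed CPM of 4 gene lists in each library of healthy, acute 24 h, 72 h and 7 d HSCs, with a symbol for each replicate number and a line at each group mean. The division lists peak at 72 h, the collagens are highest at 7 d in 3 of 4 libraries, and the contractile genes are highest at 24 h.

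Genes with the highest changes against 24 h included genes of hepatocytes. Bhmt, a methyltransferase of hepatocytes, was at 0.18, 0.61 and 0.70 CPM at 24 h and at 56.4, 63.6, 189 and 77.0 CPM at 72 h, while healthy HSCs held 31.8 to 364 CPM. Its change was 7.57, or 6.95 without acute 72 h replicate 3. The predicted gene Gm5096 and Car3, carbonic anhydrase 3, changed by 7.86 and 6.39, or 7.27 and 5.41 without that library. The hepatocyte list summed to 798 to 1190 CPM at 24 h, with 18 of 28 genes higher at 72 h, and its part in these changes was not tested. Gm43489, which lies inside Hgf, changed by 7.16 and had under 0.9 CPM in healthy replicate 2 and in acute 7 d replicate 2 too.

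Genes with the lowest changes against 24 h included a cytokine, a hormone and a metallothionein. Il11, an interleukin that acts on fibroblasts, was at 133, 131 and 128 CPM at 24 h and at 3.01, 5.46, 1.95 and 1.94 CPM at 72 h (log2 fold change -5.40, SE 0.51, edgeR adjusted p = 1.2e-07). Rasd1, a small GTPase induced by glucocorticoids, was at 206, 164 and 136 CPM and then at 9.30, 12.2, 2.36 and 2.25 CPM. Mt2, metallothionein 2, was at 1779, 923 and 805 CPM and then at 44.2, 107, 46.8 and 6.58 CPM, a change of -4.51, or -5.17 without acute 72 h replicate 2. Stc1, stanniocalcin 1, changed by -4.48, or -5.34 without acute 72 h replicate 1, and Gm10309 by -4.73, or -5.45 without acute 72 h replicate 2. Ankrd1 was at 120, 51.0 and 96.0 CPM at 24 h, and its change to 72 h was -3.69, and its call against healthy was the one that several left-out libraries removed.

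Genes higher at 72 h than at 7 d included genes of muscle. Casq2, the calcium store protein calsequestrin 2, was at 0 to 0.69 CPM in healthy HSCs, 0.26 to 0.62 CPM at 24 h, 30.3, 44.3, 37.9 and 51.2 CPM at 72 h and 1.54, 1.56, 4.51 and 7.74 CPM at 7 d. It was higher at 72 h than in each other group, by 3.41 against 7 d (SE 0.54, edgeR adjusted p = 0.00022) and 4.01 without acute 7 d replicate 4. Tnnt2, cardiac troponin T, was at 1.04 to 1.94 CPM in healthy HSCs and at 15.3, 20.1, 33.7 and 35.9 CPM at 72 h, a change of 3.12 against 7 d. Sele and Egr4, an early growth response factor, changed by 4.57 and 3.81 against 7 d, and both were higher at 72 h than in each other group. Rpl32, a ribosomal protein with many pseudogenes that can share its reads, changed by 3.88.

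Genes lower at 72 h than at 7 d included macrophage genes. Gpnmb was at 13.9, 15.9, 12.4 and 56.2 CPM at 72 h and at 423, 1161, 1728 and 494 CPM at 7 d, a change of -5.27, or -6.09 without acute 72 h replicate 4. Atp6v0d2, a subunit of the proton pump found in osteoclasts and macrophages, changed by -6.92, or -8.51 without that library, and Thbs4, thrombospondin 4, by -7.42. Thbs4 was at least 157-fold lower without that library, and it was not called by DESeq2 (adjusted p = 0.0705). Both had no count in 2 or more of the acute 72 h libraries. The pan-macrophage list summed to 5260 to 13600 CPM at 7 d against 454 to 812 CPM at 72 h, with 17 of 18 genes lower at 72 h, and its part in these changes was not tested. Gm49339 had no count in healthy, 24 h and 72 h libraries and 25.9 to 47.0 CPM at 7 d, at least 149-fold lower at 72 h, and was not called without the filter on low counts. Nr1i3, at 8.51 to 14.7 CPM at 7 d, was at least 43-fold lower at 72 h. Among the 23 genes lowest at 72 h, 2 abundant ones named after their values were seen were Apoe, apolipoprotein E, at means of 7735, 6032, 2842 and 12850 CPM in healthy, 24 h, 72 h and 7 d HSCs, and Gsn, gelsolin, which severs actin, at means of 1496, 1125, 429 and 1029 CPM.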

How the data were processed

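RNA of sorted HSCs was sequenced from 27 libraries in 7 groups, of which the 4 acute 72 h and 4 healthy ones were compared here and the acute 24 h and 7 d ones used beside them. Per the labels and the methods, STAR (alignment to GRCm38) and StringTie (assembly) were the authors' tools for the single-end reads. What they deposited are raw counts, whole numbers per Ensembl gene, and how they were derived from the assembly, tool versions and strand are not given in the sources used here. Of 53379 genes, 16198 had no count. Symbols, classes and positions came from GENCODE M21, and promoters from RefSeq (GRCm38.p6).

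The tests were run with edgeR 4.0.16 under R 4.3.3. Genes passed filterByExpr by group (18758), TMM factors set the library scaling, and 1 robust quasi-likelihood model with group means was fitted to all 27 libraries. Adjusted p-values are Benjamini-Hochberg values over all genes tested. Log2 CPM used a prior count of 2. Genes with at most 3 counts in every library of a group were given a bound, against a floor of 3 counts per library. On simulated data, 138 of 200 genes changed 2 log2 units were recovered with 2 false calls among 18278 genes. The simulation drew each library independently, without the pairs of acute 72 h libraries, so it gives no rate of false calls for the real data. Figures used matplotlib 3.10.9. DESeq2 1.42.0, other scalings, filters, thresholds, a replicate block and left-out libraries were alternatives. The study's own comparison tables were not used.

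The members and lists were chosen with earlier results of these data known. Named genes were the 12 highest and 12 lowest called genes without overlap whose mean log2 CPM reached 3, up to 4 called members per list and direction, a fixed set of HSC genes, the 5 highest and 5 lowest in each other comparison by the same rule, and cell type markers. A fixed gene and a list member are not reported here. Others are said to be chosen after their values were seen. Bounds cover counting error only, while SE and adjusted p come from the fitted model, which includes the spread between libraries.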

Additional observations from a re-analysis of the deposited data

Results flagged for a closer look

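In 8 of 210 pairs of a named gene and a group, 1 library stood apart from the other 3 by Dixon's gap test on log2(CPM + 1), and chance alone marks about 1 in 20. In healthy HSCs these were Dcn in replicate 3 (7652 CPM, the others 20130 to 21760), Axl in replicate 1 (225 CPM, the others 293 to 306), Reln in replicate 4 (1909 CPM, the others 2802 to 2898) and Ngfr in replicate 4 (178 CPM, the others 241 to 257). In acute 72 h HSCs these were Mup9 in replicate 2 (3.12 CPM, the others 0), Gm44220 in replicate 3 (0.57 CPM, the others 1.65 to 1.86), Ccl7 in replicate 2 (537 CPM, the others 186 to 211) and Ccn2 in replicate 1 (582 CPM, the others 1224 to 1383).

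The effect of 1 injection differed between 72 h and another time for the genes named in those comparisons, by the edgeR test between the times. They were picked as the highest and lowest called genes of that same test, so a difference was fixed by the choice. Against 24 h the fitted log2 fold changes were 7.86 for Gm5096, 7.57 for Bhmt, 7.16 for Gm43489, 6.39 for Car3 and 6.37 for Pclaf, and -5.40 for Il11, -4.73 for Gm10309, -4.69 for Rasd1, -4.51 for Mt2 and -4.48 for Stc1. Against 7 d they were 4.57 for Sele, 3.88 for Rpl32, 3.81 for Egr4, 3.41 for Casq2 and 3.12 for Tnnt2, and -11.62 for Gm49339, -9.83 for Nr1i3, -7.42 for Thbs4, -6.92 for Atp6v0d2 and -5.27 for Gpnmb. Gm49339 and Nr1i3 had no count at 72 h, so their fitted values depend on the prior count, and the bounds were at least 149-fold and 43-fold lower.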

How the results depend on the processing

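Of 118 named changes against healthy, 95 kept direction and call under every alternative fit. The same held for 8 of 10 against 24 h and 8 of 10 against 7 d. Over these fits 56 values lost their call and 1 gained it. The alternative thresholds were applied to counts of genes only, not to named changes. Uncalled changes near 0 turned sign. Lrat was -0.0329 with DESeq2 size factors, -0.0376 with DESeq2, -0.00835 unfiltered, -0.00856 with a minimum of 1 CPM, -0.00941 with only the 2 groups and -0.128 with acute 72 h replicates 3 and 4 only, and ran from -0.237 to 0.247 with 1 library left out. Des was -0.0491 with replicates 3 and 4 only.

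Genes higher and lower than healthy (1543 and 812) ran from 1350 to 1624 and from 660 to 944 with 1 library left out. They were 2451 and 1653 without a fold minimum and 514 and 128 in a test against 2-fold. Against 24 h the latter gave 971 and 138, and 1589 were lower without a fold minimum. Against 7 d it gave 51 and 215, with 1096 higher without a fold minimum and 330 higher unfiltered. Scaling by library size moved the median of all genes by 0.104 and made 74.6% of the called genes higher, in place of 65.5%. DESeq2 called 1594 and 1031. The 157 genes highest at 72 h ran from 92 to 147 with 1 acute 72 h library left out. They were 94 without acute 72 h replicate 3, 92 without replicate 4, 100 unfiltered and 15 against 2-fold. Leaving out a library of another group was not run for this count. The 23 lowest were 15 with library size, 36 at adjusted p under 0.1, 46 without a fold minimum, 3 against 2-fold and 11 with 2 groups. List members lower (34) were 11 against 2-fold.

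Chosen after seeing the data, acute 72 h replicates 1 and 2 only gave 478 lower than healthy, 1221 higher and 426 lower than 24 h, 53 highest and 14 lowest. Replicates 3 and 4 only gave 1208 lower than 24 h, 290 higher and 599 lower than 7 d and 67 lowest. Mitosis genes higher were 47 and 53 of 58. Genes with a count in both groups gave 1462 and 778.

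Deviations of same-numbered healthy and acute 72 h libraries correlated at 0.106, 0.102, -0.157 and 0.147. Those of libraries with different numbers ran from -0.327 to 0.322. The same-numbered values lay within that range, and so few libraries cannot exclude a pairing. The replicate block gave 1531 and 832. The 3 to 4 libraries per group and low counts limit genes under about 3 counts.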

Other observations

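Calls differed by gene class. Of 14078 protein-coding genes 1096 were higher and 609 lower at 72 h than in healthy HSCs, and of 1768 processed pseudogenes 347 were higher and 20 lower. Processed pseudogenes share reads with their parent genes, so these counts are uncertain. Of 854 loci of the class TEC, which awaits experimental evidence, 12 were higher and 67 lower, of 658 antisense genes 14 and 33, and of 473 lincRNAs 29 and 29.

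Genes higher at 72 h than in healthy, 24 h and 7 d HSCs were not all genes of cell division. Chosen after their values were seen, they included Adm, the vasodilator adrenomedullin, at 325.5, 413, 389 and 346 CPM at 72 h against 73.8 to 113 CPM in healthy HSCs, Anxa1, annexin A1, a mediator that dampens inflammation, at 396, 567, 548 and 525 CPM against 159 to 243 CPM, and Robo2, a receptor for Slit ligands, at 251, 241, 329 and 321 CPM against 126 to 146 CPM. The groups did not overlap in these 3 genes.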
